A study of Rattus norvegicus and Mus musculus with 34 samples.

Results

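Secreted ligands of the BMP and TGF-beta family and the secreted proteins that bind BMPs were followed in rat jaw tissue healing with or without its sensory nerve. The genes were chosen by name. They are the ligands Bmp2, Bmp4, Bmp6, Bmp7, Tgfb1, Tgfb2 and Tgfb3 and the antagonists Nog, Grem1 and Chrdl2, which makes 10 of the 20022 genes in the rat tables. All 10 were listed, and each had counts in at least some rats. The tissue came from 23 young male Sprague-Dawley rats of WT genotype, all of which received the same standard bone defect in the lower jaw, on its cheek side. With sensory nerve+ the inferior alveolar nerve, which carries sensation from the lower jaw, was intact, and with sensory nerve− a stretch of it had been cut out. There were 3 sensory nerve+ rats at day 3 and 4 rats in each of the other groups, which were sensory nerve− at day 3 and both conditions at days 7 and 14.

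BMPs and TGF-betas are dimeric signalling proteins that assemble type I and type II receptors on the cell surface and pass the signal on through SMAD proteins. BMPs drive the differentiation of bone-forming cells, and TGF-betas, which are held latent in the matrix until released, govern matrix production and the recruitment of cells to a wound. Noggin, gremlin and the chordin-like proteins bind BMPs outside the cell and keep them from their receptors, so that the level of a ligand's RNA alone does not give the strength of the signal. In the developing jaw, several BMPs are also made by tooth epithelium and dental papilla.

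Levels are given as CPM, the counts of a gene relative to its library's total, after scaling by the trimmed mean of M values (TMM), a method that sets the bulk of genes equal between libraries. Totals lay between 14854389 and 18742274 counts per rat. Since CPM does not account for transcript length, a level is compared only between rats and never between genes. Fold changes are log2 values from the quasi-likelihood test of edgeR, and a gene is called where its Benjamini-Hochberg adjusted p over all genes tested was under 0.05. Nothing in the labels ties a rat to a litter or surgical session. In this mixed tissue, fewer cells of a type and less RNA per cell cannot be told apart. Genes of fibroblasts and periodontal ligament summed to 13740 to 48130 CPM over all rats. Other marker sums differed widely between rats, from 5.73 to 6125 CPM for neutrophil genes, 60.6 to 6762 CPM for osteoblast genes, 354 to 15795 CPM for osteoclast genes, 12.4 to 2377 CPM for platelet genes and 55.0 to 2606 CPM for Schwann cell genes. Tooth genes (Amelx, Ambn, Enam and Dspp, summed) were over 500 CPM in 4 rats, namely sensory nerve+ rats 2 and 3 and sensory nerve− rat 3 of day 3, and sensory nerve+ rat 3 of day 7, at 771 to 22993 CPM. Another 4 rats had 119 to 317 CPM of these genes, and in the remaining 15 rats the sum was 0 to 21.1 CPM. The same first 4 rats had 348 to 844 CPM of epithelial keratinocyte and adhesion genes. Skeletal muscle genes were low at day 3 (16.8 to 368 CPM summed) and reached 207 to 32185 CPM later. Erythroid genes held 254039 CPM or more in 3 of the 4 sensory nerve− rats of day 14.

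**Figure D1:**
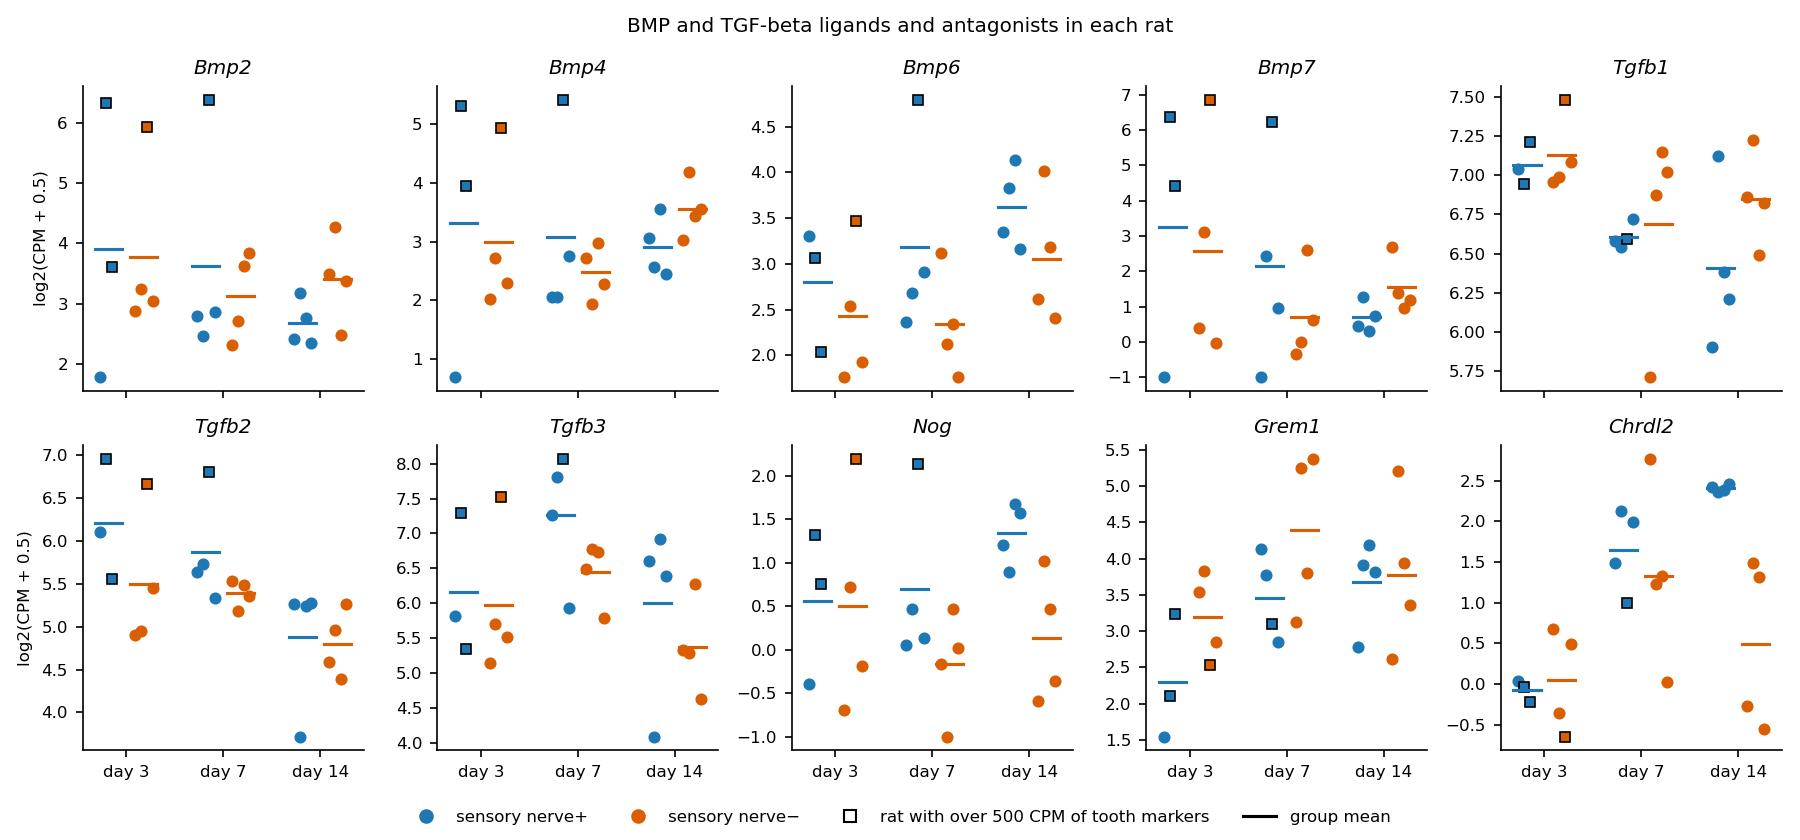
Each point is 1 rat, with the level of the gene as log2(CPM + 0.5) on the vertical axis and the day on the horizontal axis; blue is sensory nerve+, orange is sensory nerve−, lines are group means, and black-edged squares are the 4 rats with over 500 CPM of tooth markers. Of the squares, 3 stand above all other points for Bmp2, Bmp4 and Bmp7, while Chrdl2 climbs from day 3 to day 14 in the sensory nerve+ rats.

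Transection was compared first, at each day and over all days, to ask whether the sensory nerve changes the RNA of these signals. None of the 10 genes was called in any of these comparisons. At day 3, 0 of 14695 genes tested were called (0%), and none of the members had an unadjusted p under 0.05. At day 7 the background was 0 of 14716 genes (0%), again with no member under an unadjusted p of 0.05. The sensory nerve− rats of day 7 were deposited in a table of their own, and in each comparison with them, of nerve or of days, an effect of the table cannot be told apart. At day 14, 0 of 14610 genes were called (0%) although 1362 (9.32%) had an unadjusted p under 0.05, and 3 of the 10 members were among those. With day as a covariate over all 23 rats, 0 of 15858 genes were called (0%), and 811 (5.11%) had an unadjusted p under 0.05, among them 2 members. DESeq2, run as a second tool, also called none of the members in the 4 comparisons.

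Chrdl2, which encodes the BMP-binding protein chordin-like 2, gave the lowest p of the members at day 14. Its levels were 4.87, 4.65, 4.71 and 4.99 CPM in the sensory nerve+ rats and 0.327, 2.31, 1.99 and 0.185 CPM in the sensory nerve− rats. All rats with the nerve lay above all rats without it, and the sensory nerve+ rats were close together. Groups that did not overlap were found for 3.37% of all genes tested in this comparison. The log2 fold change was −1.97 ± 0.70 (SE, n = 4 against 4, edgeR, unadjusted p = 0.0221, adjusted p = 0.519). Several marker sums differed between the same groups at day 14. Summed muscle genes were 219 to 24377 CPM (median 13173) in the sensory nerve+ rats and 207 to 6774 CPM (median 658) in the sensory nerve− rats, with overlap between the groups. Summed Schwann cell genes were 274 to 2606 CPM with the nerve and 134 to 292 CPM without it at this day. Median sums with and without the nerve were 933 and 3531 CPM for osteoblast genes, 2183 and 9267 CPM for osteoclast genes, 368 and 1887 CPM for platelet genes and 90996 and 309799 CPM for erythroid genes. The part of these lists in the values of Chrdl2, Nog and Bmp7 at day 14 was not tested.

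Noggin, a high-affinity BMP antagonist, was also lower after transection at day 14 by its fitted fold, without being called. Its levels were 1.80, 1.35, 2.70 and 2.47 CPM in the sensory nerve+ rats and 0.164, 1.52, 0.883 and 0.278 CPM in the sensory nerve− rats. Only sensory nerve− rat 2 reached the range of the intact group. The log2 fold change of Nog was −1.5 ± 0.64 (SE, n = 4 against 4, edgeR, unadjusted p = 0.0455, adjusted p = 0.519). Bmp7, a ligand of the same branch, stood the other way. It had 0.875, 1.90, 0.747 and 1.15 CPM with the nerve and 5.97, 2.09, 1.44 and 1.76 CPM without it. The groups overlapped, and the highest value belonged to sensory nerve− rat 1, which carried 146 CPM of tooth genes where the sensory nerve+ rats of that day had 0.0547 to 2.20 CPM; the part of those cells in the difference was not tested. For Bmp7 the log2 fold change was 1.25 ± 0.53 (SE, edgeR, unadjusted p = 0.0462, adjusted p = 0.519), and it was 0.82 on library totals alone.

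Across all days, Grem1 and Bmp6 were the members with an unadjusted p under 0.05. Gremlin 1 is a secreted antagonist of BMP2, BMP4 and BMP7 that is strongly made by fibroblasts. Its median level was 3.81 CPM with the nerve and 8.92 CPM without it at day 3, 10.6 and 25.6 CPM at day 7, and 14.0 and 12.3 CPM at day 14. The ranges overlapped at every day, and 3 sensory nerve− rats of days 7 and 14 stood highest, at 37.8, 40.9 and 36.4 CPM. With day as a covariate, the log2 fold change of Grem1 was 0.79 ± 0.34 (SE, 23 rats, edgeR, unadjusted p = 0.0306, adjusted p = 0.860). BMP6, a ligand with roles in bone and in iron control by the liver, had medians of 7.86 and 4.32 CPM at day 3, 6.49 and 4.22 CPM at day 7, and 11.7 and 7.13 CPM at day 14, with and without the nerve. The median was thus lower without the nerve at each day, with overlapping ranges. Its log2 fold change over all days was −0.69 ± 0.33 (SE, edgeR, unadjusted p = 0.0474, adjusted p = 0.860).

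**Figure D2:**
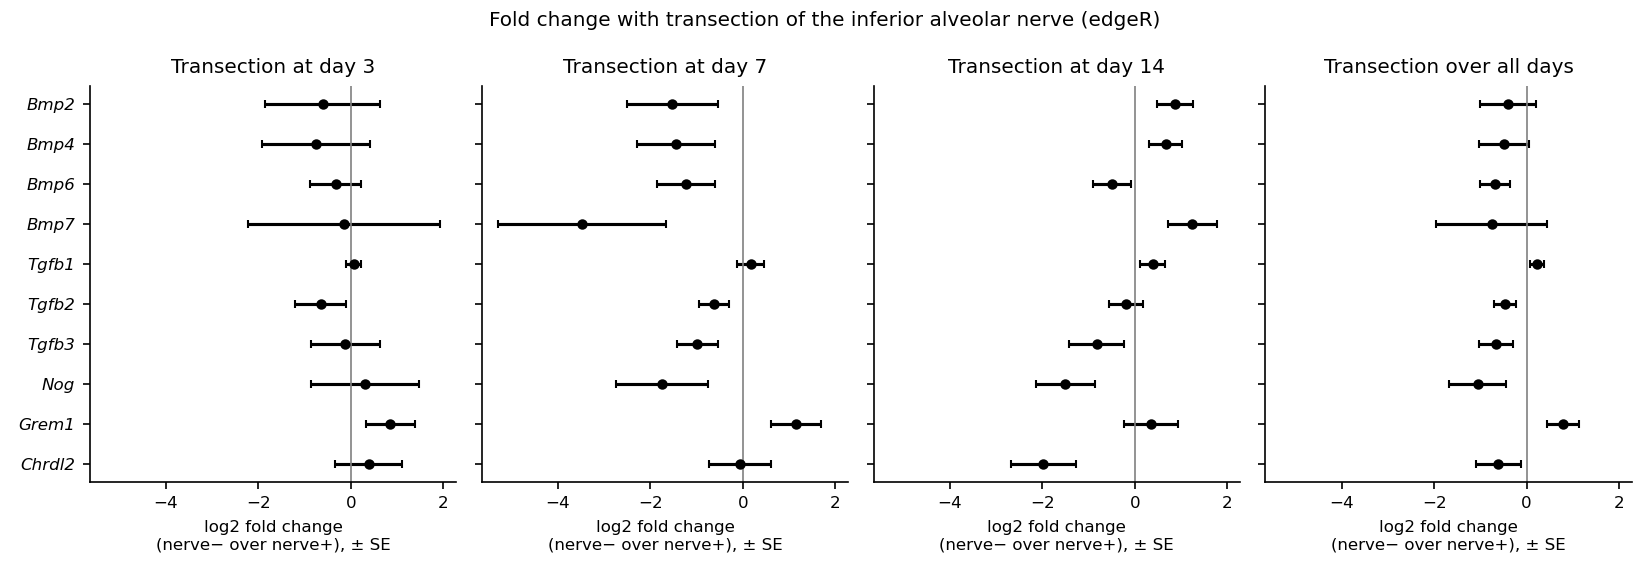
Points are log2 fold changes of the 10 genes (sensory nerve− over sensory nerve+) with their SE from edgeR, at days 3, 7 and 14 and over all days with day as a covariate. The intervals of day 3 are wide for Bmp2, Bmp4 and Bmp7, and at day 14 Chrdl2 (−1.97) and Nog (−1.5) lie to the left while Bmp7 (1.25) lies to the right.

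Whether transection acted differently at the 3 days was tested by the interaction of nerve and day. The interaction was called for 0 of 15858 genes (0%), of which 475 (3%) had an unadjusted p under 0.05, and for none of the members. Chrdl2 had the lowest p of the 10 (edgeR, unadjusted p = 0.0829, adjusted p = 0.998). Its mean was 0.453 ± 0.084 CPM (SD, n = 3) with the nerve and 0.609 ± 0.469 CPM (SD, n = 4) without it at day 3. At day 7 the means were 2.78 ± 1.08 and 2.66 ± 2.51 CPM (SD, n = 4 each), and at day 14 they were 4.80 ± 0.15 and 1.2 ± 1.1 CPM (SD, n = 4 each). The groups overlapped at days 3 and 7 and did not overlap at day 14, but the difference between the days did not pass the test.

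Changes over the days were next compared within each condition. With the nerve intact, 1002 of 15016 genes (6.67%) were called between days 3 and 7 and 871 of 15065 (5.78%) between days 3 and 14, against 3 of 14867 (0.0202%) between days 7 and 14. Of the 10 members, Chrdl2 alone was called, at days 7 and 14 against day 3. It had 0.523, 0.476 and 0.360 CPM at day 3, from 7 to 10 counts a rat, and 2.30, 3.85, 1.5 and 3.47 CPM at day 7. Every rat of day 7 lay above every rat of day 3, as in 25.4% of all genes tested between these days. The log2 fold change of Chrdl2 was 2.64 ± 0.45 (SE, n = 4 against 3, edgeR, adjusted p = 0.0211). By day 14 the fold over day 3 was 3.41 ± 0.30 on the log2 scale (SE, edgeR, adjusted p = 0.0165), the 7th lowest p of all genes tested. From day 7 to day 14 the groups did not overlap either, as in 5.78% of all genes, and the log2 fold change was 0.82 ± 0.31 (SE, edgeR, unadjusted p = 0.0302, adjusted p = 0.503).

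The call of Chrdl2 rests on few rats. Between days 3 and 7, it was lost without any 1 of 6 rats, all but sensory nerve+ rat 3 of day 7, and over all 7 omissions the log2 fold change was 2.41 to 2.84 (edgeR, adjusted p between 0.00802, without that rat, and 0.102). Between days 3 and 14 it was lost without rat 3 of day 3 or without rat 1, 3 or 4 of day 14, and kept without each of the other 3, and over all 7 omissions the log2 fold change was 3.30 to 3.50 (edgeR, adjusted p between 0.00157, without rat 2 of day 14, and 0.0896). In the same rats summed muscle genes were 24.6 to 57.5 CPM at day 3 and 5260 to 15928 CPM at day 7, and their part in the result was not tested. At day 14 the muscle sum was 219 to 24377 CPM in these rats.

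**Figure D3:**
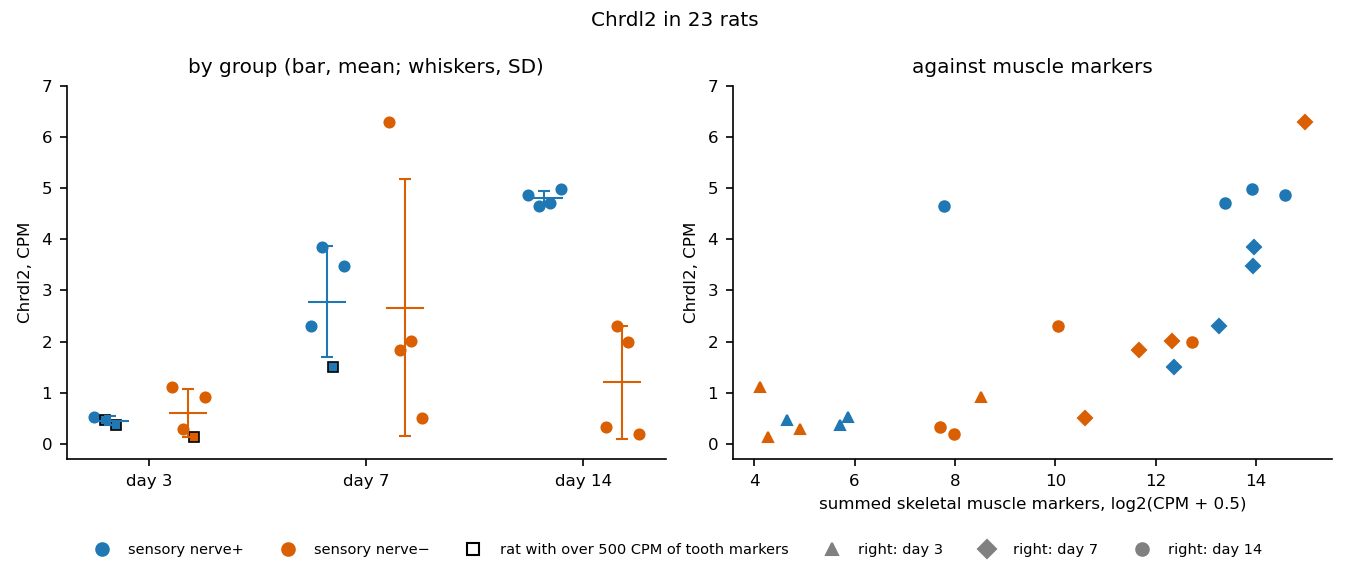
The left panel shows the CPM of Chrdl2 in each rat by day, with group means and SDs; the right panel shows the same values against the summed CPM of 7 skeletal muscle genes on a log2 scale, with day 3 as triangles, day 7 as diamonds and day 14 as circles. The 7 rats of day 3 lie at the lower left with at most 1.10 CPM, and the 4 sensory nerve+ rats of day 14 lie between 4.65 and 4.99 CPM at 219 to 24377 CPM of muscle genes.

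Without the nerve the time course of Chrdl2 was not called. Its levels were 1.10, 0.285, 0.14 and 0.910 CPM at day 3 and 6.30, 1.84, 2.0 and 0.514 CPM at day 7, with overlap between the days. The highest of these, sensory nerve− rat 1 of day 7, also had the most muscle RNA of all 23 rats (32185 CPM). The log2 fold change from day 3 to day 7 was 2.15 ± 0.86 (SE, n = 4 each, edgeR, unadjusted p = 0.0371, adjusted p = 0.146). In this condition 1524 of 14576 genes (10.5%) were called between days 3 and 7, 2 of 14447 (0.0138%) between days 7 and 14 and 3396 of 14449 (23.5%) between days 3 and 14, and none of the members was among them. Nog had too few counts to be tested in these 3 comparisons, which leaves 9 members. DESeq2 called Grem1 between days 3 and 7 and Bmp4 between days 7 and 14.

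Bmp4, a ligand of bone and tooth development, was the member with the lowest p over time in the sensory nerve− rats. It had 6.07, 3.31, 7.38 and 4.37 CPM at day 7 and 7.61, 17.7, 10.4 and 11.3 CPM at day 14. After TMM scaling, every rat of day 14 lay above every rat of day 7, as in 12.3% of all genes tested. The log2 fold change was 1.15 ± 0.34 (SE, n = 4 each, edgeR, unadjusted p = 0.00918, adjusted p = 0.124). Scaling factors of these rats were 0.941 to 1.13 at day 7 and 0.496 to 1.17 at day 14, so the separation depends on the scaling. In 8 other settings the fold of Bmp4 was 0.82 to 1.16. At day 3 the levels were 3.54, 6.13, 30.2 and 4.39 CPM, the highest in sensory nerve− rat 3 with its tooth genes. From day 3 to day 14 the log2 fold change of Bmp4 was 0.02 ± 0.70 (SE, edgeR, adjusted p = 0.986), or −0.31 on library totals, and without sensory nerve− rat 3 of day 3 it was 1.28 (edgeR, adjusted p = 0.0441). In a fit of the 19 rats left without the 4 tooth-marker rats, a choice made after seeing the data, the log2 fold change of Bmp4 from day 3 to day 14 was 1.33 ± 0.38 without the nerve (SE, edgeR, adjusted p = 0.0195). With the nerve it was 2.74 ± 0.67 (SE, edgeR, adjusted p = 0.0230), where day 3 is then a single rat at 1.11 CPM, assumed to vary like the other groups.

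TGF-beta 1, 2 and 3 bind the same receptors and differ in where they are made. Tgfb1, which is made widely and by platelets and macrophages, varied least of the members, from 51.8 to 179 CPM over the 23 rats. With the nerve it had 131, 123 and 148 CPM at day 3 and 95.2, 92.6, 96.2 and 105 CPM at day 7. After TMM scaling, all rats of day 7 were lower than all rats of day 3 (25.4% of all genes did not overlap in either direction). The log2 fold change was −0.41 ± 0.12 (SE, n = 4 against 3, edgeR, unadjusted p = 0.0106, adjusted p = 0.0881), which DESeq2 called. It was −0.46 to −0.39 over the 8 alternatives. The scaling factors were 0.837 to 1.17 at day 3 and 0.770 to 1.35 at day 7, so the separation depends on the scaling. Summed platelet genes were 344 to 579 CPM at day 3 and 12.4 to 362 CPM at day 7 in these rats, with overlap, and their part was not tested. At day 14 these rats spread from 59.4 to 139 CPM.

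Tgfb2, the isoform of heart, cartilage and palate development, had 68.3, 124 and 46.6 CPM at day 3 and 37.8, 12.7, 37.3 and 38.4 CPM at day 14 with the nerve. The groups did not overlap, as in 24.5% of all genes tested, and the log2 fold change was −1.33 ± 0.47 (SE, edgeR, unadjusted p = 0.0260, adjusted p = 0.124). After TMM scaling, all rats of day 14 were below those of day 7 as well, whose lowest had 39.7 CPM. Between these days, 5.78% of all genes tested did not overlap in either direction. The scaling factors were 0.770 to 1.35 at day 7 and 0.981 to 1.26 at day 14, so this separation depends on the scaling. Without the nerve, Tgfb2 went from 36.0 to 45.9 CPM at day 7 to 20.4 to 37.8 CPM at day 14, with a log2 fold change of −0.56 ± 0.21 (SE, edgeR, unadjusted p = 0.0263, adjusted p = 0.166). Tgfb3, which is known from palate fusion and fetal skin, was lower between the same days, with ranges of 54.7 to 110 CPM at day 7 and 24.2 to 77.3 CPM at day 14. Its log2 fold change was −1.0 ± 0.37 (SE, edgeR, unadjusted p = 0.0246, adjusted p = 0.162). The 2 fold changes were in the same direction but neither was called.

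Grem1 had higher fitted levels at days 7 and 14 than at day 3 in both conditions, without a call by edgeR. The sensory nerve− rats had 5.31 to 13.8 CPM at day 3 and 8.21 to 40.9 CPM at day 7, and the log2 fold change was 1.43 ± 0.55 (SE, edgeR, unadjusted p = 0.0322, adjusted p = 0.135). With the nerve, Grem1 went from 2.42 to 8.88 CPM at day 3 to 6.40 to 17.8 CPM at day 14, with a log2 fold change of 1.39 ± 0.53 (SE, edgeR, unadjusted p = 0.0349, adjusted p = 0.146). Rats overlapped between the days in both comparisons. From day 7 to day 14 the log2 fold change of Grem1 was 0.23 ± 0.39 with the nerve and −0.58 ± 0.67 without it (SE, edgeR).

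Bmp2, Bmp4 and Bmp7 differed widely between rats of one group. BMP2 is the ligand used clinically to induce bone, and BMP7 is known for roles in kidney, eye and skeleton. At day 3 Bmp7 had 0, 82.1 and 20.9 CPM in the sensory nerve+ rats and 0.812, 8.22, 115 and 0.482 CPM in the sensory nerve− rats. At day 7 its levels were 0, 4.84, 74.9 and 1.44 CPM with the nerve and 0.281, 0.488, 5.57 and 1.03 CPM without it. The 0 counts allow up to 0.196 CPM in the rat of day 3 and 0.147 CPM in that of day 7, by the limit of 3 counts and for counting error only. Ordered by their tooth genes, the 4 rats with over 500 CPM of those had 20.9 to 115 CPM of Bmp7, the 4 rats with 119 to 317 CPM had 4.84 to 8.22 CPM, and the other 15 rats had 0 to 2.09 CPM. The 3 ranges did not overlap. The limits were set after seeing the data, and the rats are not the study's groups.

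Bmp2 and Bmp4 were high in 3 of the 4 tooth-marker rats. Sensory nerve+ rat 2 and sensory nerve− rat 3 of day 3 and sensory nerve+ rat 3 of day 7 had 79.6, 60.3 and 82.6 CPM of Bmp2, where 19 rats without many tooth genes had 2.94 to 18.7 CPM. For Bmp4 the same rats had 39.2, 30.2 and 42.2 CPM against 1.11 to 17.7 CPM. The 4th tooth-marker rat, sensory nerve+ rat 3 of day 3, had the most tooth RNA (22993 CPM) but only 11.8 CPM of Bmp2 and 15.0 CPM of Bmp4, within the range of the other rats. Bmp2 and Bmp4 thus did not scale with the tooth genes among the 4 rats. Bmp7 did not either, with 20.9 CPM in this 4th rat, the lowest of the 4. Sensory nerve+ rat 3 of day 7, with the least tooth RNA of the 4 (771 CPM), had 74.9 CPM of Bmp7. In the sensory nerve+ rats, the log2 fold change of Bmp7 from day 3 to day 14 was −4.88 ± 1.57 (SE, edgeR, unadjusted p = 0.0168, adjusted p = 0.0992) and that of Bmp2 was −2.39 ± 0.97 (SE, edgeR, unadjusted p = 0.0423, adjusted p = 0.162). From day 7 to day 14 the log2 fold change of Bmp7 was −4.14 ± 1.72 (SE, edgeR, unadjusted p = 0.0423, adjusted p = 0.519). Without the tooth-marker rats, day 3 with the nerve is a single rat, with 2.94 CPM of Bmp2 and no Bmp7 count. Against that rat, the log2 fold change from day 3 to day 14 turned to 1.06 for Bmp2 and 7.33 for Bmp7. The value of Bmp7 depends on the fit's prior count and is no bound.

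**Figure D4:**
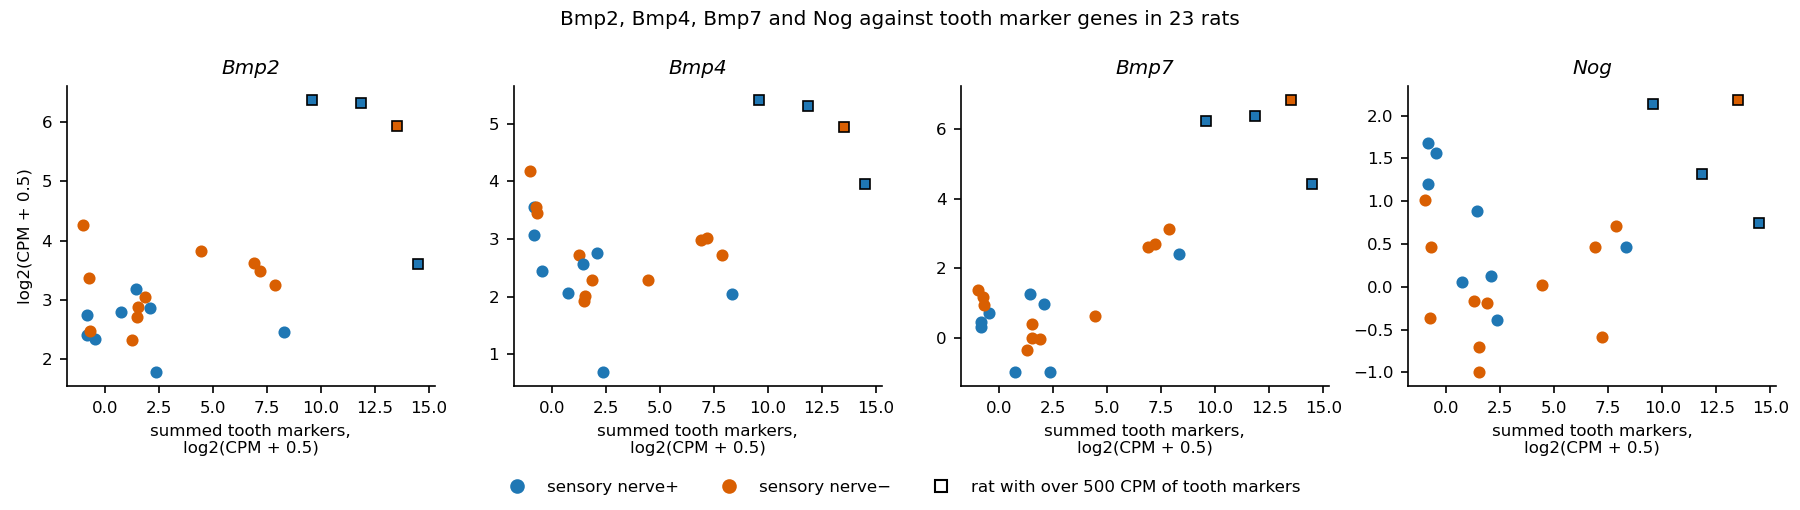
Each point is 1 of 23 rats, with the level of the gene on the vertical axis and the summed level of 4 tooth genes on the horizontal axis, both as log2(CPM + 0.5), and symbols as in the plot of members by rat. The 4 rats with over 500 CPM of tooth genes have 20.9 to 115 CPM of Bmp7, above the 19 others (0 to 8.22 CPM), while their lowest levels of Bmp2, Bmp4 and Nog lie within the range of the others.

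Among the 10 genes, the pairs that varied most alike between rats of one group were Bmp2 with Bmp4 (r = 0.895), Bmp4 with Bmp7 (r = 0.861), Bmp2 with Bmp7 (r = 0.860) and Bmp4 with Nog (r = 0.850). These are Pearson correlations of log2(CPM + 0.5) over 23 rats after each group's mean was subtracted, and all points share the scaling of their libraries. Over the 19 rats without many tooth genes, r was 0.307, 0.157, 0.331 and 0.686 in the same order. Bmp4 with Nog thus had the lowest r of the 4 pairs over 23 rats and the highest over 19. Among all pairs of members, the highest r over the 19 rats was that of Bmp2 with Tgfb1, at 0.804, where it was 0.348 over 23 rats. Bmp4 with Bmp6 had 0.684 over the 19 rats. The highest levels of Nog were in tooth-marker rats that were also among the 3 highest for Bmp4, with 4.06 CPM of Nog in sensory nerve− rat 3 of day 3 and 3.89 CPM in sensory nerve+ rat 3 of day 7, against 0 to 2.70 CPM in the 19 rats with fewer tooth genes, where 0 in 1 rat allows up to 0.163 CPM.

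The stretches of 250 bases upstream of the start of Bmp4 and Nog are shown. Among the pairs named above as most alike over 23 rats, this ligand and antagonist had the highest r over the 19 rats. They are RefSeq sequences of build GRCr8, while the counts were made on mRatBN7.2. Bmp4 lies on the minus strand at chr15:22101934-22102183 and Nog on the minus strand at chr10:74627502-74627751, and both are printed 5′ to 3′ in the direction of the gene. Capitals mark the letters GGGCGG, known as the GC box, or CCGCCC on the other strand.
Bmp4: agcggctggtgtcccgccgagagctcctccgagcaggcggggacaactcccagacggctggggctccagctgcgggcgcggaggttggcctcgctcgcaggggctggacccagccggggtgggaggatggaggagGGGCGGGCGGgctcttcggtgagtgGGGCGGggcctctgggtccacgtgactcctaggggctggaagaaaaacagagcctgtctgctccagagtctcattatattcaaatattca
Nog: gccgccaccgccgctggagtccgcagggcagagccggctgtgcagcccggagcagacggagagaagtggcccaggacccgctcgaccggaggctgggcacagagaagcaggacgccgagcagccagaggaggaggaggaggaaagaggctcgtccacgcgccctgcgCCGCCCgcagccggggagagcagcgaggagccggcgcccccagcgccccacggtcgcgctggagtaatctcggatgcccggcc
Bmp4 held 3 such matches, of which 2 share bases, and Nog held 1 on the other strand. Upstream stretches were at hand for 7 of the 10 members, and those of Grem1 and Bmp6 held the letters too, while those of Tgfb1, Tgfb2 and Tgfb3 did not. Of 33469 stretches of the same length, 30.5% held them.

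The 3 genes whose levels varied most like a member's were named by the same correlation over 23 rats. For Bmp7 they were Sp6 (r = 0.968), Msx2 (r = 0.968) and Calb1 (r = 0.961), and for Bmp2 they were Chka (0.968), Efnb3 (0.967) and Sdc3 (0.958). For Bmp4 they were Tbx2 (0.951), Tle2 (0.946) and Cacna1d (0.942). Over the 19 rats without many tooth genes the 9 values were 0.450 to 0.877. Chrdl2 had Mrps5 (0.843), Bckdhb (0.820) and Ahdc1 (0.817), and Nog had an unnamed locus, LOC102547753 (0.939), with Vwa2 (0.910) and Id4 (0.910). For Tgfb1 these were Gpr108 (0.900), Eml3 (0.893) and Samd1 (0.871), for Tgfb2 they were Fam168a (0.886), Glis1 (0.877) and Trip12 (0.872), and for Tgfb3 they were Zfp57 (0.926), Dchs1 (0.925) and Adamts17 (0.897). Bmp6 had Rabggta (0.834), Zfyve21 and Cfap36 (0.826), and Grem1 had Tm7sf3 (0.821), Oaf (0.784) and Hsd17b12 (0.765).

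The rest of the pathway was taken from 7 lists of 107 genes in all. None of the 93 to 102 list genes tested was called in the transection comparisons, in their interaction with day, or between days 7 and 14 in either condition, by edgeR. For transection, an unadjusted p under 0.05 was found for 1 of 95 list genes at day 3, 8 of 96 at day 7 and 14 of 95 at day 14. It was found for 6 of 102 over all days and 5 of 102 for the interaction. Between days 7 and 14 it was found for 10 of 95 with and 30 of 93 without the nerve. The shares of all genes with such a p were 0.83, 1.46, 9.32, 5.11, 3, 9.42 and 23.5% in the same order. DESeq2 called 1 list gene for transection at day 14 and 0 in the other transection tests, and 2 and 22 between days 7 and 14. Over time, the list genes called were 7 of 98 between days 3 and 7 with the nerve (7.14%), 6 of 96 between days 3 and 14 with the nerve (6.25%), 3 of 95 between days 3 and 7 without it (3.16%) and 9 of 95 between days 3 and 14 without it (9.47%). The shares over all genes were 6.67, 5.78, 10.5 and 23.5% in the same order.

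**Figure D5:**
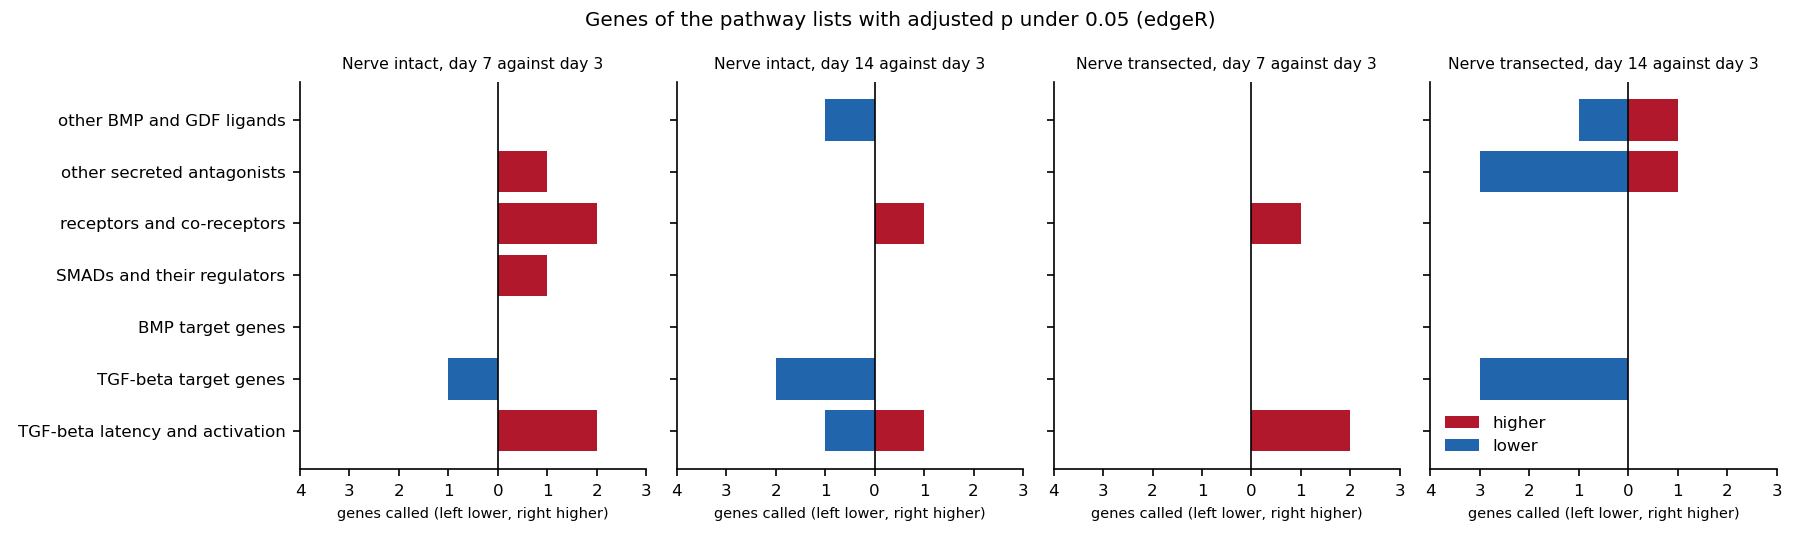
Bars give the number of genes of each pathway list with an adjusted p under 0.05 in edgeR, to the right for higher and to the left for lower at the later day, for the 4 comparisons against day 3. The list of TGF-beta target genes has called genes on the lower side only, 3 of them between days 3 and 14 in the sensory nerve− rats, and the list of BMP target genes has none.

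TGF-beta target genes were counted next. Between days 3 and 14 without the nerve, 3 of 14 list members were called lower and 0 higher, with a median log2 fold change of −0.73 where the median of all genes was −0.05 and 23.5% of all genes were called, so that the list's share of calls was near that of all genes. Tgfbi, a matrix protein named for its induction by TGF-beta, went from 661 ± 180 CPM (SD, n = 4) to 199 ± 58 CPM (SD, n = 4), a log2 fold change of −1.78 ± 0.27 (SE, edgeR, adjusted p = 0.00460). Fibronectin (Fn1), which forms the early wound matrix, went from 3739 ± 1287 to 1228 ± 154 CPM (SD), a log2 fold change of −1.65 ± 0.27 (SE, edgeR, adjusted p = 0.00582). Tgfbi and Fn1 were called in each of the 8 alternatives and without each rat in turn. With the nerve, 2 of 14 were called lower between days 3 and 14 and 1 between days 3 and 7, and 0 were called higher, where 5.78 and 6.67% of all genes were called.

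No BMP target gene was called by edgeR. Their median log2 fold change was −1.25 for transection at day 7 over 13 genes and 0.52 at day 14 over 13 genes, and 1.09 from day 7 to day 14 without the nerve over 13 genes. The sensory nerve+ group of day 7 holds tooth-marker rat 3, whose part in the value of −1.25 was not tested. The sensory nerve− rats of day 7 are in a table of their own, so an effect of the table cannot be told apart in the comparisons with them. Id1, an inhibitor of differentiation that BMP receptors switch on directly, had the lowest p of the list, between days 7 and 14 without the nerve. It went from 19.9 ± 5.5 to 53.6 ± 10.6 CPM (SD, n = 4 each), and the log2 fold change was 1.43 ± 0.23 (SE, edgeR, unadjusted p = 0.000195, adjusted p = 0.104). DESeq2 called it. Of the 13 genes of the list tested between these rats, 9 had an unadjusted p under 0.05 and all 9 were higher at day 14, where 23.5% of all genes had such a p in either direction. Among them were Id3, Smad6, Smad7 and Smad9, which BMP receptors also induce, and Dlx5 and Sp7, which act in bone-forming cells. Summed osteoblast genes, Sp7 among them, were 93 to 822 CPM at day 7 and 790 to 6762 CPM at day 14 in these rats, and their part was not tested. Bmp4 had 1.15 ± 0.34 (SE) between the same rats. Between them, the median log2 fold change of all genes was −0.40 on library totals and −0.01 with TMM. The sizes of these rises thus depend on the scaling. Against day 3 without the nerve, the median log2 fold change of the list was −1.21 at day 7 and −0.12 at day 14, over 14 genes each. An unadjusted p under 0.05 (edgeR) was found for 5 of the 14 at day 7 and 1 at day 14, with 0 of them higher. Such a p was found for 28.8 and 38.8% of all genes in the same order.

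Among the other extracellular regulators, 1 antagonist rose and 3 fell of 12 tested between days 3 and 14 without the nerve, where 23.5% of all genes were called (1284 higher and 2112 lower). Follistatin-like 1 (Fstl1), which is abundant in stromal cells, went from 406 ± 121 to 187 ± 61 CPM (SD, n = 4 each), and its log2 fold change was −1.16 ± 0.29 (SE, edgeR, adjusted p = 0.0261). Fstl3, a follistatin-like inhibitor of activins, and Dand5, a nodal and BMP antagonist, were near 1 to 3 CPM and had log2 fold changes of −1.59 ± 0.43 (SE, edgeR, adjusted p = 0.0336) and 1.90 ± 0.54 (SE, edgeR, adjusted p = 0.0375). The calls of these 3 were lost without 4, 6 and 6 of the 8 rats in turn. Of 12 other ligands tested, Bmp15, an oocyte growth factor, rose by 2.78 ± 0.63 (log2, SE, edgeR, adjusted p = 0.0183) to 2.70 ± 1.5 CPM (SD), and Gdf3 changed by −2.48 ± 0.63 (log2, SE, edgeR, adjusted p = 0.0269) to 0.270 ± 0.123 CPM (SD). Without each of the 8 rats in turn, the call of Bmp15 was kept in 7 fits and that of Gdf3 in 4.

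With the nerve, the called list genes between days 3 and 7 were mostly receptors, co-receptors and matrix regulators that rose. Hjv, a BMP co-receptor of skeletal muscle and liver, went from 0.305 ± 0.250 CPM (SD, n = 3) to 45.6 ± 24.1 CPM (SD, n = 4), a log2 fold change of 7.18 ± 0.82 (SE, edgeR, adjusted p = 0.00558), beside the muscle genes given above, whose part was not tested. Rgmb, a neuronal relative of Hjv, rose by 1.18 ± 0.25 (log2, SE, edgeR, adjusted p = 0.0408). Smad3, which carries the TGF-beta signal to the nucleus, rose from 44.0 ± 10.1 to 89.3 ± 12.3 CPM (SD), a log2 fold change of 1.07 ± 0.19 (SE, edgeR, adjusted p = 0.0218). Ltbp4, which tethers latent TGF-beta to the matrix, rose by 2.55 ± 0.38 (log2, SE, edgeR, adjusted p = 0.0128), and decorin (Dcn), a proteoglycan that binds TGF-beta, rose by 1.15 ± 0.23 (log2, SE, edgeR, adjusted p = 0.0349). Chrd, the BMP antagonist chordin, was called higher, and is named after its value was seen. With the replicate number as a block, none of the list genes was called between these days. Without each of the 7 rats in turn, the call of Hjv was kept in all 7 fits and that of Ltbp4 in 5. The call of Smad3 was kept in 2 of the 7 fits, and those of Rgmb and Dcn in 1 each.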

How the data were processed

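Periodontal healing tissue of 23 rats was measured by mRNA sequencing. The authors deposited expected counts per gene (37% of values are whole), in 2 tables, one of which holds only the sensory nerve− rats of day 7. HISAT and Bowtie2 are named in the submitters' processing notes with build mRatBN7.2, and the counting program is not given in the sources used here. A table of cultured mouse cells was not used here. Groups were taken from the labels.

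Rounded expected counts entered edgeR 4.0.16 (quasi-likelihood F test, R 4.3.3, limma 3.58.1) after filterByExpr and TMM scaling, on the groups compared, with p-values adjusted by Benjamini-Hochberg over all genes tested at 0.05. Nerve over all days had day as a covariate, and the interaction used all 23 rats. Each p-value measures only the spread between these rats. Totals were 14854389 to 18742274 per rat, and genes with under 10 counts are imprecise. DESeq2 1.42.0, RLE factors, library totals, no filter, a stricter filter (1 CPM), a replicate block, 1 fit of all rats and each rat left out were tried, and later a fit without 4 rats with over 500 CPM of tooth markers. The script was tested on simulated data.

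Members, pathway lists and marker lists were chosen with earlier results of these data known. All members were named. Of each pathway list, the called genes with the 3 smallest p were named in the comparison with most called genes, or the 1 gene with the smallest p where none was called, and the 3 genes most like each member by Pearson r were named. Some genes that this rule names are not reported here.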

Additional observations from a re-analysis of the deposited data

Results flagged for a closer look

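Of 50 pairs of a member and a group of 4 rats, 12 held a rat that stood apart from the other 3 by the Dixon gap criterion. Chance meets this criterion in about 1 in 20 groups of independent, normally distributed values. Here CPM was not put on a log scale and the pairs share rats, so 12 of 50 cannot be set against that rate. In 9 of the 12, that rat was one of those with over 500 CPM of tooth markers, and in 11 it was the highest of its group. Sensory nerve− rat 3 of day 3 stood apart with 60.3 CPM of Bmp2, 30.2 CPM of Bmp4, 115 CPM of Bmp7 and 183 CPM of Tgfb3. Sensory nerve+ rat 3 of day 7 stood apart with 82.6 CPM of Bmp2, 42.2 CPM of Bmp4, 27.2 CPM of Bmp6, 74.9 CPM of Bmp7 and 3.89 CPM of Nog. Bmp7 was also far from the rest at 5.57 CPM in sensory nerve− rat 3 of day 7 and at 5.97 CPM in sensory nerve− rat 1 of day 14, which had 119 and 146 CPM of tooth genes. The 1 low value was 12.7 CPM of Tgfb2 in sensory nerve+ rat 2 of day 14. The part of tooth tissue in these values was not tested.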

How the results depend on the processing

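In the 4 transection comparisons and the interaction, the count of members called was 0 in every alternative run. Between days 3 and 7 with the nerve, where 1 member was called, DESeq2 called 2 (Tgfb1 and Chrdl2), while the replicate block, 1 fit of all 23 rats and the fit without the tooth-marker rats called 0, and leaving out 1 rat gave 0 to 1. Between days 3 and 14 with the nerve, DESeq2 called 5 (Bmp2, Bmp7, Tgfb2, Grem1 and Chrdl2), the block 0, and leaving out 1 rat gave 0 to 2. The count was 2 without rat 1 of day 3, where Bmp7 was added, or without rat 2 of day 14, where Tgfb1 was added. Without the tooth-marker rats, where day 3 with the nerve is then a single rat, Bmp4 was called in place of Chrdl2. In the sensory nerve− rats DESeq2 called 1 member between days 3 and 7 and 1 between days 7 and 14, and between days 3 and 14 1 was called without the tooth-marker rats and 0 to 1 with 1 rat left out. In the fit without tooth-marker rats, the log2 fold changes from day 3 to day 14 with the nerve turned to 1.06 for Bmp2 and 7.33 for Bmp7. Both rest on that single rat of day 3. The cause of these changes was not tested.

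Counts over all genes moved by more than 1.5 times in several settings. DESeq2 called 1 gene for transection at day 7, 95 at day 14 and 1 over all days. With the nerve it called 2808 between days 3 and 7, 325 between days 7 and 14 and 3375 between days 3 and 14, and without it 3217 between days 3 and 7 and 1991 between days 7 and 14. Library totals gave 579, 13 and 547 with the nerve in the same order, and 21 (days 7 and 14) and 1184 (days 3 and 14) without it. The 23-rat fit gave 2606 (days 3 and 14, with the nerve), 2287 and 927 (days 3 and 7, and 7 and 14, without it). Without the tooth-marker rats the counts were 317 and 0 with the nerve (days 3 and 7, and 7 and 14) and 1007 without it (days 7 and 14). Of the pathway list genes, DESeq2 called 16, 18, 17 and 19 between day 3 and the later days (with the nerve at days 7 and 14, without it at days 7 and 14), and the block 0, 0, 0 and 13, where edgeR had called 7, 6, 3 and 9. On library totals the median log2 fold change of all genes was −0.41 for transection at day 14 (0.03 with TMM), and without the nerve −0.40 between days 7 and 14 (−0.01) and −0.42 between days 3 and 14 (−0.05).

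What rats with the same number share beyond that number is not stated. The mean correlation of their deviations was highest for transection at day 7, at 0.153, where other pairs had −0.0541. It was lowest between days 3 and 7 without the nerve, at −0.11, where other pairs had 0.0373. In no comparison was every pair over 0.1. With 3 or 4 pairs in each comparison, these values cannot show whether such rats share more. With the replicate block, 122, 0 and 0 genes were called with the nerve (days 3 and 7, 7 and 14, and 3 and 14), and 2 and 0 without it (days 3 and 7, and 7 and 14).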
